A study of Mus musculus and Canis lupus familiaris with 12 samples.

Results

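The mitochondrial ribosomal protein genes are the rows of the deposited count tables whose gene name is MRPL or MRPS followed by a number and at most 1 letter. The mouse table held 78 such rows among its 78317, and the dog table held 62 among its 30424. All 62 dog names were also in the mouse table. Of the 78 mouse genes, 49 are named MRPL, for the large subunit, and 29 are named MRPS, for the small subunit. All 78 passed the filter on low counts in the mouse line, and 61 of 62 passed in the dog line. The exception was MRPS36, which was at 0 counts in every dog library.

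These nuclear genes encode the protein part of the ribosome inside mitochondria. Their mRNAs are translated by cytosolic ribosomes, and the proteins are imported and assembled on ribosomal RNAs made from mitochondrial DNA. The finished particle translates the few membrane subunits of oxidative phosphorylation that mitochondrial DNA still encodes. Some of its proteins have counterparts in bacterial ribosomes and others are found only in mitochondria. A few names mislead: MRPS18A and MRPS30 sit in the large subunit, and MRPS36 is now known as a subunit of the oxoglutarate dehydrogenase complex.

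RNA came from DLM8 (mouse) and Gracie (dog), both osteosarcoma cell lines labelled WT. Each was kept for 6 h with 50 nM omacetaxine (OMX), a plant alkaloid that blocks elongation on the cytosolic ribosome, or without it. Each of the 4 groups had 3 libraries, 12 in all, made from poly(A)-selected RNA. The labels call the control cells untreated, whereas the treatment protocol names DMSO. The labels do not say that the libraries of a group were separate cultures, so the p-values measure the spread between libraries, which may be technical.

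Mouse libraries held 9099313 to 11392715 counts and dog libraries 2385102 to 3381831, of which the mitochondrial ribosomal rows took 16833 to 20563 and 5541 to 8777. In Gracie the 2 rows with the most counts held 13.3% to 17.4% of an OMX library and 4.17% to 4.44% of an untreated one, and the part of this in the results was not tested. Summed osteoblast markers ran from 2002 to 2761 CPM (counts scaled by library size) untreated and from 928 to 1418 in OMX in DLM8 (0 of 10 markers at 0), and from 157 to 278 and 113 to 122 in Gracie (0 of 9 at 0). Leukocyte and epithelial markers stayed under 12 CPM in sum in every library, with Adgre1, Itgam, Krt18, Epcam and Krt5 among those at 0 in DLM8 and PTPRC, CD3E, EPCAM, KRT18 and CDH1 at 0 in Gracie. Endothelial markers summed to 1.32 to 3.07 untreated and 5.21 to 11.7 in OMX in DLM8, and to 17.4 to 86.4 and 37.8 to 76.0 in Gracie. The part of these markers in the results was not tested. In bulk RNA, fewer cells of a type and less RNA per cell cannot be told apart.

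A limit of the tables bears on what a row holds. The strand that was counted is not given in the sources used here. In the mouse annotation (GENCODE M21), 36 of the 78 genes overlap an annotated gene on the other strand, 28 of them with exons. For 27 of these a facing gene had a row in the table, and where several did, the one with the most counts was taken. The facing row held more counts than the mitochondrial ribosomal row in 20 of the 27, and over 5 times as many in 16, with ratios from 0.0581 to 87.2 and a median of 13.3. The light-strand gene mt-Nd6 had, depending on the DLM8 library, 49.9 to 94.1 times as many counts as a typical row (the median) among the remaining 12 protein genes of mitochondrial DNA. Reads of a gene and reads of its partner on the other strand cannot be told apart here. Nor do these sources show whether the reads counted were those on the mRNA's own strand. This limit covers all 78 rows, the 42 with no facing gene included. It also covers the other rows of both tables, such as those of the comparison genes below. The values below are therefore given as those of rows, and where a gene is said to rise or fall, its row is meant.

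**Figure D1:**
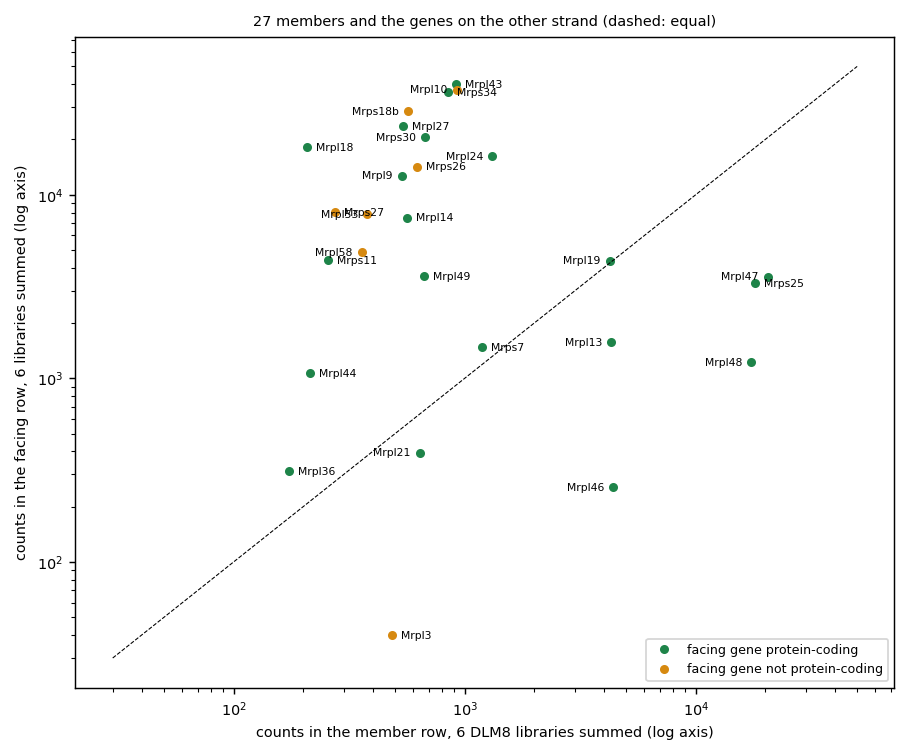
Counts summed over the 6 DLM8 libraries in each of 27 mitochondrial ribosomal rows (x axis, log scale) and in the row of the gene that overlaps its exons on the other strand (y axis, log scale), coloured by whether the facing gene is protein-coding. Points above the dashed line, 20 of 27, have more counts in the facing row, and Mrpl47, Mrps25, Mrpl48, Mrpl46 and Mrpl13 lie to the right, below the line.

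The promoters shown first are those of the 3 called DLM8 rows with the smallest p among rows with a promoter window. All 3 were lower. No window was found for Mrpl4, Mrpl19 and Mrpl38, the called rows with smaller p, which were higher. The motifs named below were searched in all windows. Each is the RefSeq window from 250 bases before to 50 bases after the gene's start in GRCm38.p6, written along the gene's strand. Capitals mark a motif match. The windows lie at chr8:71464676-71464975 on the plus strand (Mrpl34), chr3:32736706-32737005 on the minus strand (Mrpl47) and chr17:12916042-12916341 on the minus strand (Mrpl18).
Mrpl34: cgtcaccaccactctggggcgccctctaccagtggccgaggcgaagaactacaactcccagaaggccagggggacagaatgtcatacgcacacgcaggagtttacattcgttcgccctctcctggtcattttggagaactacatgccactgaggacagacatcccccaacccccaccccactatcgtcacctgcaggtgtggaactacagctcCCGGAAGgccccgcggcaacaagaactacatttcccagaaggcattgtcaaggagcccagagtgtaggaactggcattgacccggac
Mrpl47: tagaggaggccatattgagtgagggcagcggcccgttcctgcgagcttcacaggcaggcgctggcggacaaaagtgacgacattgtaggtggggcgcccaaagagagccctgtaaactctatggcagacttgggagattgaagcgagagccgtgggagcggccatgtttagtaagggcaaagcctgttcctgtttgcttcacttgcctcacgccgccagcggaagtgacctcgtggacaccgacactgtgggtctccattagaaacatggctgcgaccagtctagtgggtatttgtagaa
Mrpl18: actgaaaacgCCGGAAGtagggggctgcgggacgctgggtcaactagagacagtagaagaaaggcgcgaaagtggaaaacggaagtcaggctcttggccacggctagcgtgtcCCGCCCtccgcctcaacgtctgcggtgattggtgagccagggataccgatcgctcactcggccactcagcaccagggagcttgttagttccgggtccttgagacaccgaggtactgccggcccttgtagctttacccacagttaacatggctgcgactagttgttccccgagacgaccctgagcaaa
The capitals in Mrpl34 begin at −37 from the start and are the ETS-type letters CCGGAAG. Mrpl18 holds the same letters at −240, and CCGCCC, the reverse complement of the GC box GGGCGG, at −137. Mrpl47 held no match.

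Mrps11 and Mrpl46, a small and a large subunit protein gene, lie head to head, and their windows share 141 bases. This pair was chosen for printing after its values were seen. The windows are chr7:78782881-78783180 on the plus strand and chr7:78783040-78783339 on the minus strand.
Mrps11: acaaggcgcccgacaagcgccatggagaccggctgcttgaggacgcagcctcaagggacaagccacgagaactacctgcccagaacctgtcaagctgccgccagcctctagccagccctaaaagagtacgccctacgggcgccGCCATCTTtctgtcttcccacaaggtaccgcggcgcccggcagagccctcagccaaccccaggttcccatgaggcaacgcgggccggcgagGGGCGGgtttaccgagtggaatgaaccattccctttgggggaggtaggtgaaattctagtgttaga
Mrpl46: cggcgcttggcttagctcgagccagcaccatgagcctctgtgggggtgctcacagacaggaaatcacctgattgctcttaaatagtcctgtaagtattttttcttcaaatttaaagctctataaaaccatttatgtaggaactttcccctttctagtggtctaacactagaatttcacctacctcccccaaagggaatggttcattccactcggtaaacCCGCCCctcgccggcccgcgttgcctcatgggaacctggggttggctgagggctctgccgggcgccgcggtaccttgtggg
In Mrps11 the capitals mark GCCATCTT, the reverse complement of the YY1-type AAGATGGC, at −107, and GGGCGG at −16. The capitals in Mrpl46 begin at −31 and are the same GC box read from the other strand.

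RefSeq windows were found for 69 of the 78 genes, 75 windows in all. On either strand, CCGGAAG was present in 26 of the 75 (34.7%) and in 8.86% of all 32851 mouse windows. AAGATGGC was present in 12 (16.0%, against 2.75%), and the nuclear respiratory factor 1 motif GCGCATGCG in 7 (9.33%, against 1.75%). The E-box CACGTG, which MYC and related factors bind, was present in 7 (9.33%, against 7.15%), and GGGCGG in 39 (52.0%, against 35.7%). Several windows of 1 gene were counted separately, so the 7 E-box windows belong to 5 genes and the 39 with GGGCGG to 34. None of these motifs contains another, and CACGTG reads the same on both strands. Base composition differed too, with a median GC content of 58.7% in these windows and 52.7% in all windows. A match describes letters in a window and is not a bound site.

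In DLM8, 10 of the 78 rows were lower after OMX, 5 were higher and 63 were not called at an adjusted p under 0.05 (edgeR's quasi-likelihood test, Benjamini-Hochberg over all 17109 genes tested). Of all genes tested, 15.9% were lower and 19.4% were higher (35.3% in either direction), against 12.8% and 6.41% of the mitochondrial ribosomal rows. The median log2 fold change of the 78 rows was −0.34, and that of all genes tested was 0.02. In 56 of the 78 rows the fold change was below 0. All OMX libraries lay below all untreated ones in 22 rows (23.4% of all genes) and above them in 6 (25.6% of all genes). The share of rows called lower was thus under the share over all genes, while the median lay below that of all genes.

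The 10 and 5 calls depended on single libraries. The lower count was 5 without untreated replicate 2, 6 without untreated replicate 3 and 4 without OMX replicate 2. The higher count was 3 without untreated replicate 3 and 3 without OMX replicate 2. With library size alone as the scaling, which moves the median of all genes to 0.16 and the share of higher among all calls from 54.8% to 66.6%, 4 rows were lower and 5 higher, and the median of the 78 rows was −0.19. The median of the rows minus that of all genes was −0.35 as reported, −0.68 with no filter and −0.49 with a minimum of 10 counts. The all-gene median was 0.32 with no filter and 0.13 with that minimum, and the cause of this shift was not tested.

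**Figure D2:**
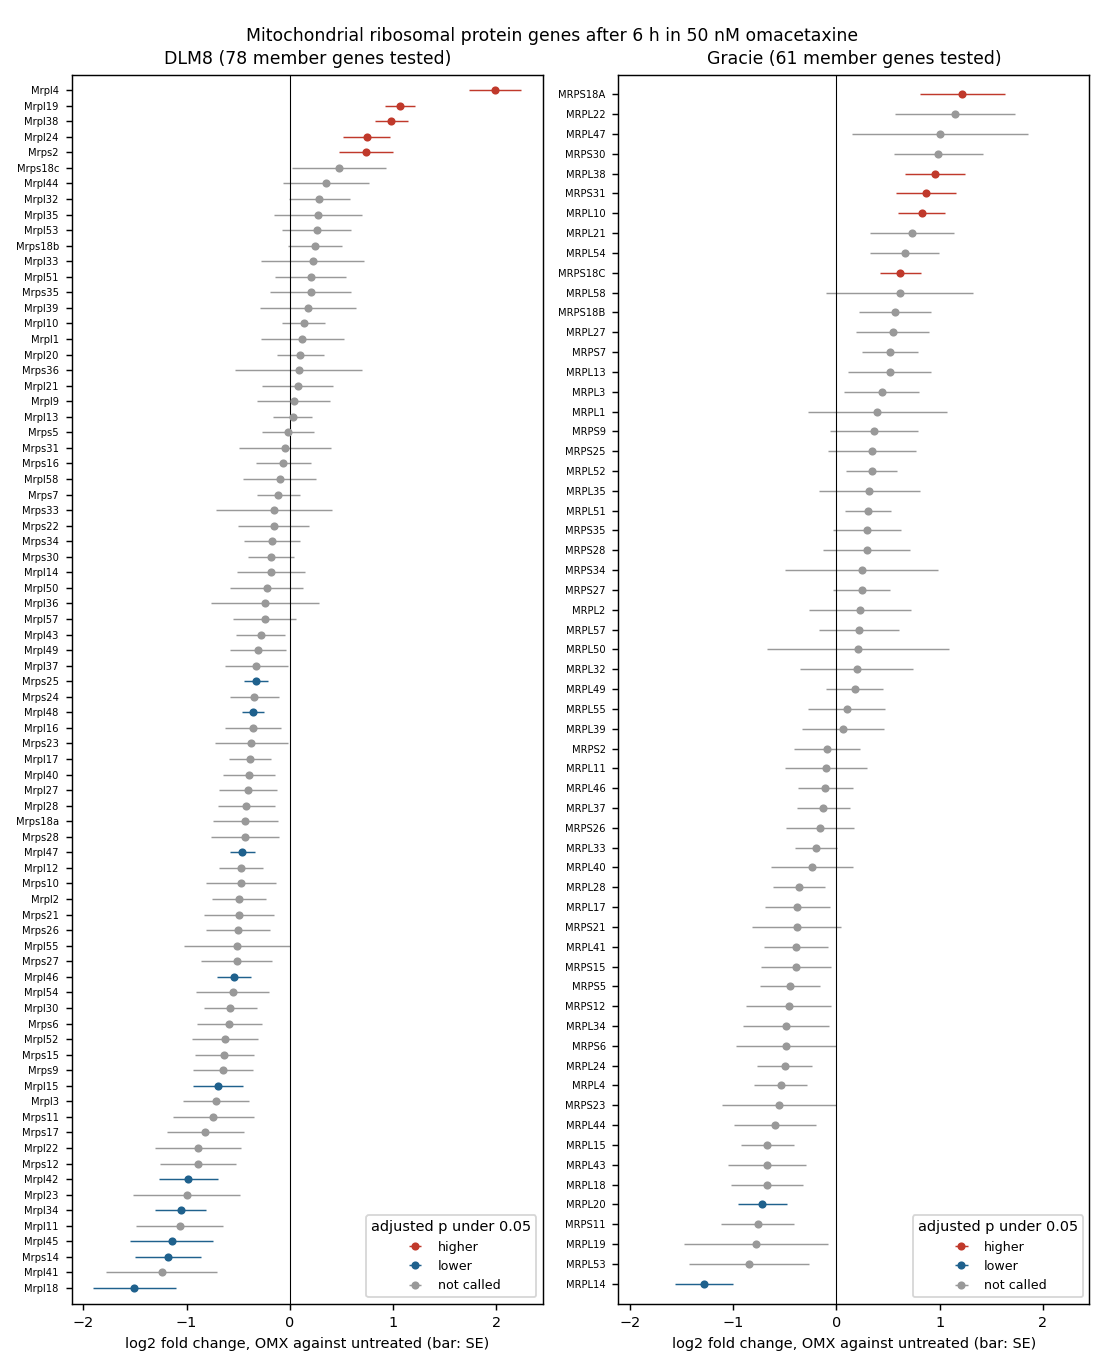
Log2 fold change of OMX against untreated with its standard error (bar) for each mitochondrial ribosomal row tested in DLM8 (left, 78 rows) and Gracie (right, 61 rows), sorted within each line. Coloured rows passed an adjusted p under 0.05. In DLM8, 10 are lower and 5 higher with 56 of 78 below 0, and in Gracie 2 are lower and 5 higher with 28 of 61 below 0.

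Among the bacterial-type proteins of the large subunit, 30 rows were tested in DLM8, of which 4 were lower (13.3%) and 3 higher (10%), with a median of −0.37. For this and the following subunit classes the shares over all genes are 15.9% lower and 19.4% higher. The row of Mrpl4, a protein lining the region of the exit tunnel, stood at 22.1, 16.9 and 17.4 CPM untreated and at 48.3, 71.8 and 104.1 CPM in OMX. Every OMX library lay above every untreated one, and the row rose by a log2 fold change of 1.99 (SE 0.26, edgeR adjusted p = 0.000102). Mrpl19 stood at 41.6, 50.0 and 47.3 CPM untreated and at 95.6, 92.2 and 103.6 CPM in OMX. The groups did not overlap, the OMX libraries were within a narrow range, and the rise was 1.07 (SE 0.15, edgeR adjusted p = 0.000151). Mrpl24 stood at 19.8, 12.5 and 17.1 CPM untreated and at 33.4, 27.0 and 22.4 CPM in OMX, a rise of 0.74 (SE 0.23, edgeR adjusted p = 0.0235) with the groups apart. The Mrpl24 call was lost in 4 of 14 other settings.

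Mrpl34, a small protein of the large subunit core, stood at 11.5, 15.8 and 14.4 CPM untreated and at 6.91, 5.85 and 7.27 CPM in OMX. The groups did not overlap, and the row fell by 1.06 on the log2 scale (SE 0.25, edgeR adjusted p = 0.00594). Mrpl47, the counterpart of bacterial L29, stood at 382.8, 405.4 and 433.1 CPM untreated and at 259.4, 299.6 and 327.7 CPM in OMX. It had the most counts of all 78 rows and fell by 0.46 (SE 0.12, edgeR adjusted p = 0.0107), with the highest OMX library below the lowest untreated one. The Mrpl47 call was lost in 1 of 14 other settings. Mrpl18, a protein of the central protuberance, stood at 6.50, 3.95 and 5.35 CPM untreated and at 1.58, 1.89 and 2.08 CPM in OMX. These are 36 to 70 and 16 to 20 counts per library, without overlap, and the row fell by 1.51 (SE 0.40, edgeR adjusted p = 0.0115). Mrpl15, the counterpart of bacterial L15, stood at 20.2, 19.1 and 13.0 CPM untreated and at 9.28, 10.4 and 12.7 CPM in OMX. Its groups were apart by a narrow margin, and it fell by 0.70 (SE 0.24, edgeR adjusted p = 0.0427), a call lost in 5 of 14 other settings.

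Of 21 rows for large subunit proteins found only in mitochondria, 4 were lower (19.0%) and 1 higher (4.76%) in DLM8, with a median of −0.31. Mrpl38 stood at 23.9, 23.0 and 23.2 CPM untreated and at 49.4, 41.3 and 48.2 CPM in OMX. The untreated libraries were nearly equal, the groups were far apart, and the row rose by 0.98 (SE 0.16, edgeR adjusted p = 0.000659). Mrpl42 stood at 10.4, 12.1 and 15.1 CPM untreated and at 7.90, 4.63 and 6.44 CPM in OMX, a fall of 0.98 on the log2 scale (SE 0.28, edgeR adjusted p = 0.0173) with the groups apart. The Mrpl42 call was lost in 2 of 14 other settings. Mrpl45, which anchors the ribosome at the inner membrane, stood at 3.71, 7.23 and 10.2 CPM untreated and at 3.36, 2.83 and 3.32 CPM in OMX. Its lowest untreated library was close to the OMX libraries, and the fall of 1.15 (SE 0.40, edgeR adjusted p = 0.0420) was lost in 5 of 14 other settings. Mrpl46 and Mrpl48, both of the central protuberance, were the remaining lower rows of this class. Mrpl46 stood at 75.2, 92.6 and 101.9 CPM untreated and at 52.2, 63.4 and 70.1 CPM in OMX, and fell by 0.54 (SE 0.17, edgeR adjusted p = 0.0249). Mrpl48 stood at 338.6, 326.2 and 332.8 CPM untreated and at 274.5, 251.6 and 254.9 CPM in OMX, and fell by 0.35 (SE 0.11, edgeR adjusted p = 0.0233). The groups were apart in both rows, and the calls were lost in 4 (Mrpl46) and 5 (Mrpl48) of 14 other settings. With library size alone Mrpl48 had a value of −0.21.

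In the small subunit, 1 of 16 bacterial-type rows was lower and 1 higher (6.25% each, median −0.48). Of 10 mitochondrion-specific rows, 1 was lower (10%) and 0 higher (median −0.16). Mrps14, the counterpart of bacterial S14, stood at 9.10, 5.81 and 8.60 CPM untreated and at 3.36, 3.40 and 3.63 CPM in OMX. The OMX libraries were nearly equal and all below the untreated ones, and the row fell by 1.18 (SE 0.32, edgeR adjusted p = 0.0131). Mrps2, the counterpart of bacterial S2, stood at 9.47, 11.6 and 6.51 CPM untreated and at 13.4, 17.4 and 15.3 CPM in OMX. Its groups were apart, and it rose by 0.74 (SE 0.26, edgeR adjusted p = 0.0437), a call lost in 7 of 14 other settings. Mrps25, of the mitochondrion-specific class, stood at 318.3, 344.3 and 371.8 CPM untreated and at 289.2, 275.2 and 258.7 CPM in OMX. The groups were apart and it fell by 0.33 (SE 0.11, edgeR adjusted p = 0.0405), a call lost in 5 of 14 other settings, with a value of −0.19 by library size alone. The 63 rows not called had log2 fold changes from −1.24 to 0.48. All OMX libraries lay below all untreated ones in 12 of them and above in 1. Over all genes tested, called ones included, these shares were 23.4% and 25.6%.

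**Figure D3:**
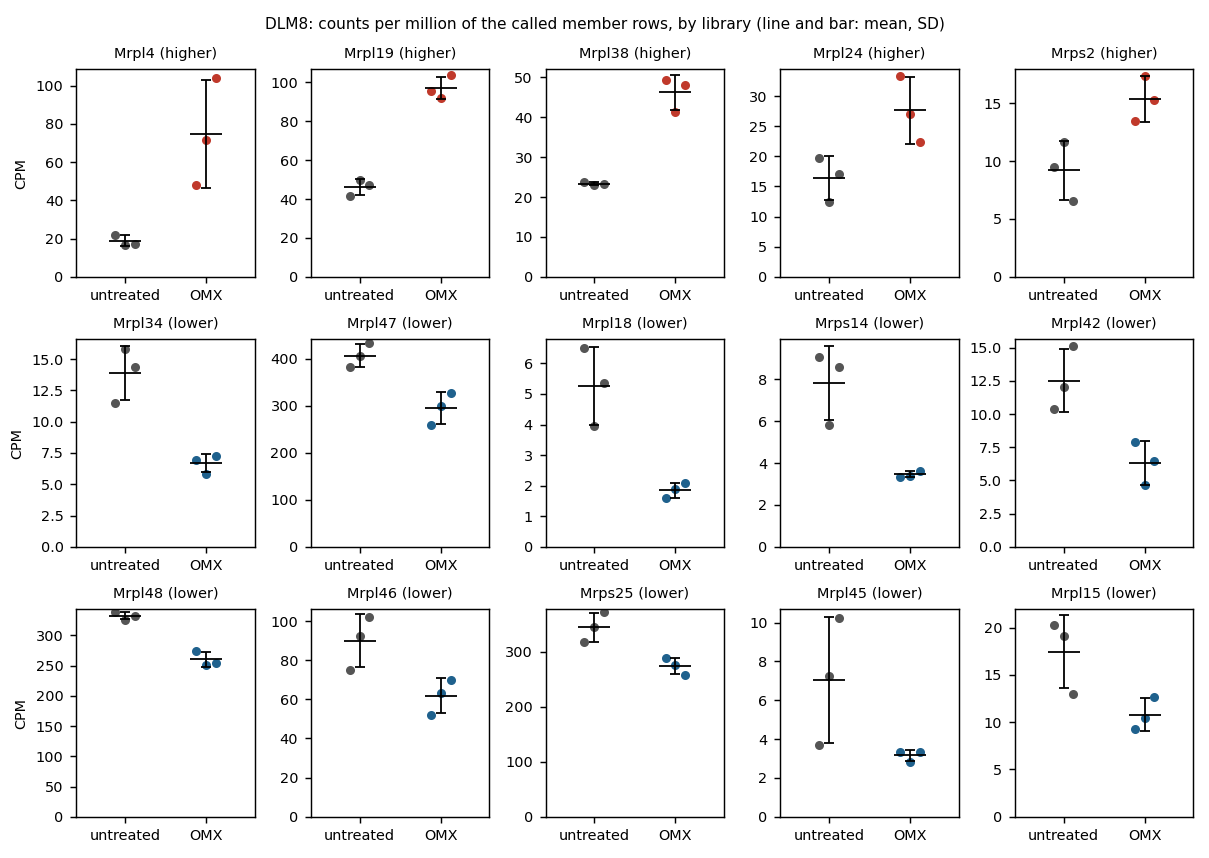
CPM (y axis, from 0) in each DLM8 library, untreated in grey and OMX in red (higher) or blue (lower), for the 15 called rows, with mean (line) and SD (bar) of 3 libraries. The groups do not overlap in any of the 15, which were picked by a test on these same libraries. The OMX libraries of Mrpl4 run from 48.3 to 104.1 CPM.

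A few rows carried most of the counts in DLM8. Mrpl47, Mrps25 and Mrpl48 held 20505, 18106 and 17387 counts over the 6 libraries, 52.2% of all counts in the 78 rows, while the median row held 472.5. The summed level of the 78 rows was 1954 CPM ± 42.7 untreated (SD, n = 3) and 1701 CPM ± 40.8 in OMX (SD, n = 3), and every OMX library was below every untreated one. Per library size alone, the sum ran from 1805 to 1886 untreated and from 1761 to 1808 in OMX, and the groups overlapped. Without the 3 rows, the other 75 summed to 870 CPM ± 13.8 untreated (SD, n = 3) and to 870 CPM ± 31.2 in OMX (SD, n = 3), with overlapping groups. Per library size alone the 75 ran from 810 to 845 untreated and from 895 to 938 in OMX. All 3 rows were called lower as reported and none with library size alone (edgeR adjusted p = 0.0538 for Mrpl47, 0.155 for Mrpl48 and 0.235 for Mrps25). The sum of the 75 mixes the rises of Mrpl4, Mrpl19 and Mrpl38 with falls in other rows.

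Exons of the same 3 genes overlap protein-coding genes on the other strand. Mrps25 shares 4590 exon bases with Nr2c2, an orphan nuclear receptor gene, whose row held 0.182 times its counts. Mrpl48 shares 708 bases with Rab6a, a Golgi GTPase gene, whose row held 0.0703 times its counts. Mrpl47 shares 616 bases with Ndufb5, a complex I subunit gene, and 452 with Actl6a, a chromatin remodelling subunit gene, whose rows held 0.0184 and 0.175 times its counts. None of these 4 facing rows was called, at log2 fold changes of −0.14 (Nr2c2), −0.54 (Rab6a), −0.27 (Ndufb5) and 0.37 (Actl6a).

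Per kilobase of exon, the levels in untreated DLM8 ran from 0.258 CPM per kb (Mrpl33) to 92.1 CPM per kb (Mrpl47), with a median of 3.74. The order was led by Mrpl47, followed by Mrpl46 at 63.5, Mrps25 at 52.4, Mrpl48 at 40.8 and Mrpl34 at 22.9 CPM per kb. The 9 rows with at least 300 exon bases under a protein-coding gene of the other strand had a median of 9.23 CPM per kb, and the other 69 had 3.33. The median was 1.75 CPM per kb over 10969 other protein-coding genes and 37.7 CPM per kb over 78 cytosolic ribosomal protein genes. The annotation is of an older build than the table, so these lengths are approximate.

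The facing rows were then set beside the called ones. Among the 16 pairs with over 5 times as many counts on the facing side, 5 facing rows were lower, 1 was higher and 10 were not called. Over all genes tested, 15.9% were lower and 19.4% higher (35.3% in either direction). The lower facing rows include Mrpl46, itself a mitochondrial ribosomal row. The median log2 fold change of the facing rows was −0.03, against −0.18 for the mitochondrial ribosomal rows of the same pairs. Mrpl18 was the 1 row called together with its facing row in the same direction. Tcp1, a subunit gene of the cytosolic chaperonin that faces it, held 87.2 times its counts and fell by 1.13 (SE 0.12, edgeR adjusted p = 1.71e-05), and what part of the Mrpl18 value this makes was not tested. Mrpl24 rose, whereas the row of Mettl25b opposite it, 12.3 times as large in counts, was not called (log2 fold change −0.19). Gcfc2, which faces Mrpl19 over 1962 exon bases and had 1.03 times as many counts, was not called at a log2 fold change of 0.33. Mrps11 had a log2 fold change of −0.74 (SE 0.39, edgeR adjusted p = 0.162), and the facing Mrpl46 row held 17.2 times its counts. Among the 42 rows that no annotated gene overlaps on the other strand, 4 were lower (9.52%) and 3 higher (7.14%), with a median of −0.36.

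Rows of neighbouring genes were also read, since Mrpl4 changed most. Mrpl4 lies next to Icam1, an adhesion molecule gene downstream on the same strand, whose row rose by 7.65 (SE 0.35, edgeR adjusted p = 3.71e-08) from a mean of 0.592 to 122.0 CPM. S1pr2, a sphingosine phosphate receptor gene upstream on the opposite strand, rose by 2.39 (SE 0.34, edgeR adjusted p = 0.000203). Trim65, downstream of Mrpl38 on the same strand, rose by 1.27 (SE 0.17, edgeR adjusted p = 0.000154). Beside the lower rows, Abhd8 upstream of Mrpl34 fell by 1.07 (edgeR adjusted p = 0.0137) and Ube2n upstream of Mrpl42 by 1.16 (edgeR adjusted p = 0.00312). Cacybp downstream of Mrps14 fell by 1.04 (edgeR adjusted p = 0.00429), and these 3 lie on the opposite strand. Acat3, upstream of Mrpl18 on the same strand, fell by 1.25 (edgeR adjusted p = 1.64e-06). Other neighbours went against their row. Socs2 downstream of Mrpl42 rose by 2.33 (edgeR adjusted p = 0.0235), Det1 upstream of Mrpl46 rose by 0.97 (edgeR adjusted p = 0.0173) and Hdgf upstream of Mrpl24 fell by 0.92 (edgeR adjusted p = 0.000557). Of 22 tested neighbours of the called rows, 10 were called, 7 in the direction of the row and 3 in the other. Over all genes tested in DLM8, 35.3% were called in either direction. For Gracie this share was 20.6%. Only the dog neighbours that were called are named here, and the others tested were not called. ICAM1 rose in Gracie by 1.50 (SE 0.32, edgeR adjusted p = 0.00507) and ABHD8 fell by 0.99 (edgeR adjusted p = 0.00552). MRPL4 had a log2 fold change of −0.54 there and MRPL34 one of −0.49, neither called. FBF1, whose mouse counterpart lies upstream of Mrpl38, rose by 1.75 (edgeR adjusted p = 0.00136), and MRPL38 rose by 0.96. GBGT1, whose mouse counterpart lies downstream of Mrps2, fell by 0.81 (edgeR adjusted p = 0.0201), and MRPS2 was not called at −0.096. COA4, whose mouse counterpart lies downstream of Mrpl48, rose by 2.07 (edgeR adjusted p = 0.0438), and the dog table had no MRPL48 row. These neighbours were chosen after the values of the mitochondrial ribosomal rows were seen, and their part in those values was not tested.

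In Gracie, 2 of the 61 rows tested were lower after OMX, 5 were higher and 54 were not called (edgeR's quasi-likelihood test over 10423 genes). Of all genes tested, 8.06% were lower and 12.5% higher (20.6% in either direction), against 3.28% and 8.20% of these rows. The median log2 fold change was 0.18, against −0.01 for all genes, and 28 of the 61 were below 0. With no filter the medians were 0.16 and 0.18, so that this contrast was no longer seen. All OMX libraries lay below all untreated ones in 8 rows (18.2% of all genes) and above them in 9 (21.5% of all genes). The summed level was 2471 CPM ± 322 untreated (SD, n = 3) and 2656 CPM ± 68.6 in OMX (SD, n = 3), with overlapping groups.

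MRPL14, a protein at the face between the subunits, stood at 59.6, 54.9 and 68.5 CPM untreated and at 32.4, 26.0 and 16.9 CPM in OMX. The groups were far apart, and the row fell by 1.28 (SE 0.28, edgeR adjusted p = 0.00542), the 1 call in Gracie that was kept under all 14 other settings. TMEM63B, whose mouse counterpart faces Mrpl14, held 1.93 times its counts and fell by 2.06 (SE 0.29, edgeR adjusted p = 0.000308). In DLM8, Mrpl14 and Tmem63b were not called, at −0.18 and −0.03. Dog gene positions were not used here, so it was not tested whether the dog genes overlap. MRPL20, another large subunit protein of bacterial type, stood at 66.6, 53.7 and 65.8 CPM untreated and at 45.2, 35.4 and 32.9 CPM in OMX. Its groups were apart, and the fall of 0.72 (SE 0.24, edgeR adjusted p = 0.0498) was lost in 9 of 14 other settings.

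MRPL10, which forms the base of the stalk that recruits translation factors, stood at 91.8, 120.7 and 140.9 CPM untreated and at 186.4, 184.6 and 254.8 CPM in OMX. The groups were apart, and the row rose by 0.82 (SE 0.22, edgeR adjusted p = 0.0185), a call lost in 2 of 14 other settings. MRPL38 stood at 25.6, 38.2 and 52.6 CPM untreated and at 72.3, 58.1 and 95.8 CPM in OMX. It rose by 0.96 (SE 0.29, edgeR adjusted p = 0.0322) with the groups apart, and was the 1 row called in both lines, though the Gracie call was lost in 5 of 14 other settings. MRPS31, a mitochondrion-specific protein of the small subunit, stood at 27.1, 24.1 and 47.6 CPM untreated and at 50.1, 61.4 and 69.1 CPM in OMX. Its highest untreated library was close to the lowest OMX one, and the rise of 0.87 (SE 0.29, edgeR adjusted p = 0.0473) was lost in 8 of 14 other settings.

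**Figure D4:**
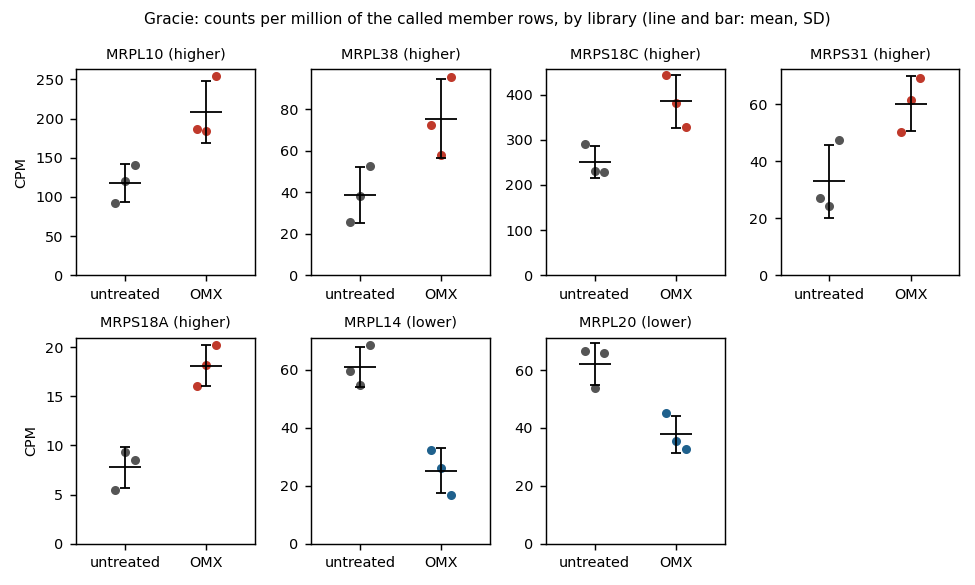
CPM (y axis, from 0) in each Gracie library, untreated in grey and OMX in red (higher) or blue (lower), for the 7 called rows, with mean (line) and SD (bar) of 3 libraries. The groups do not overlap in any of the 7, which were picked by a test on these same libraries. MRPL14 has OMX libraries from 16.9 to 32.4 CPM below untreated ones from 54.9 to 68.5 CPM.

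The dog counts of calls also rested on single libraries. The higher count was between 0 and 3 without each of the 6 Gracie libraries in turn, with 0 called without untreated replicate 2 and 3 without untreated replicate 3. The lower count was 1 without untreated replicate 2, untreated replicate 3, OMX replicate 2 or OMX replicate 3. With library size alone, which moves the median of all genes to −0.14 and the share of higher among all calls from 60.9% to 47.4%, 3 rows were lower and 1 higher. The median of the rows was −0.079 without untreated replicate 1.

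The 3 MRPS18 paralogues are variants of 1 bacterial protein, S18. MRPS18C replaces it in the small subunit, MRPS18B is a mitochondrion-specific component there, and MRPS18A is in the large subunit. In Gracie, MRPS18C had the most counts of all these rows, at 291.2, 230.9 and 229.1 CPM untreated and at 444.2, 382.2 and 327.4 CPM in OMX. The groups were apart, and it rose by 0.62 (SE 0.20, edgeR adjusted p = 0.0395), a call lost in 5 of 14 other settings. MRPS18A stood at 5.42, 9.34 and 8.52 CPM untreated and at 16.0, 18.2 and 20.2 CPM in OMX, also apart, and rose by 1.22 (SE 0.41, edgeR adjusted p = 0.0480), a call lost in 10 of 14 other settings. MRPS18B had a log2 fold change of 0.57 (SE 0.35, edgeR adjusted p = 0.268). In DLM8 none was called, at 0.48 (SE 0.45) for Mrps18c, −0.43 (SE 0.31) for Mrps18a and 0.24 (SE 0.26) for Mrps18b. Gm16279, an antisense transcript facing Mrps18b, held 50.1 times its counts in DLM8.

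The lines were compared by the interaction of line and treatment over 7566 genes tested in both. The response differed between lines for 4 of the 61 rows, 3 of them with a larger value in DLM8 and 1 with a larger value in Gracie. Of all genes, 12.1% differed (5.88% and 6.2% in these directions). With library size alone, 5 rows had a larger value in DLM8 and 0 in Gracie, and over all genes 653 and 241 did, against 445 and 469 as reported. MRPL4 had a difference of 2.53 (SE 0.37, edgeR adjusted p = 0.000177), from 1.99 in DLM8 and −0.54 in Gracie. In Gracie its row stood at 39.5, 42.8 and 45.7 CPM untreated and at 23.4, 32.7 and 31.6 CPM in OMX, so that the OMX libraries were all lower there and all higher in DLM8. The difference was kept under all 20 other settings. MRPL19 differed by 1.86 (SE 0.54, edgeR adjusted p = 0.0303), with dog values of 14.7, 2.34 and 7.74 CPM untreated and 5.75, 6.05 and 2.61 CPM in OMX that overlapped. MRPL24 differed by 1.25 (SE 0.36, edgeR adjusted p = 0.0295), from 0.74 in DLM8 and −0.50 in Gracie. MRPS18A differed by −1.65 (SE 0.51, edgeR adjusted p = 0.0376), from −0.43 and 1.22. These last 3 calls were each lost in 7 to 9 of the other settings.

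**Figure D5:**
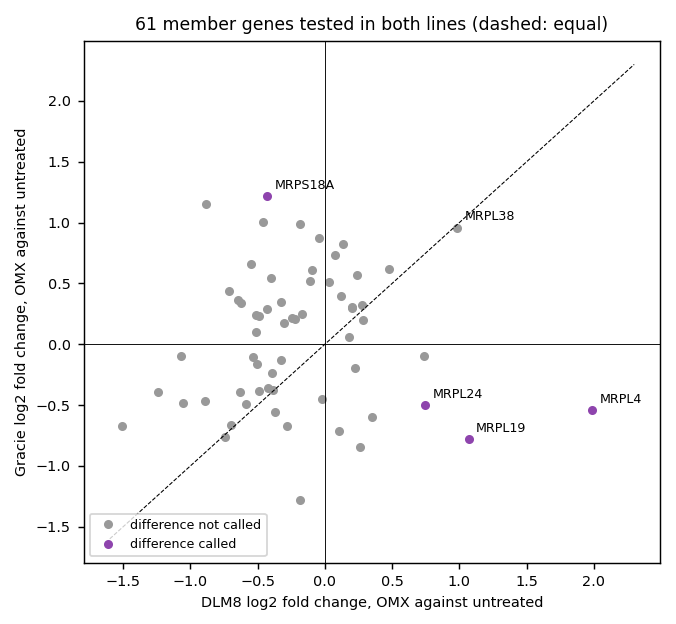
Log2 fold change of OMX against untreated in DLM8 (x axis) and in Gracie (y axis) for the 61 rows tested in both lines, with the 4 rows whose difference was called in purple and equal values on the dashed line. MRPL38 lies near the line at 0.98 and 0.96, and MRPL4 lies far below it at 1.99 and −0.54.

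MRPL38 gave nearly equal values, 0.98 in DLM8 and 0.96 in Gracie, with a difference of 0.03 (SE 0.35, edgeR adjusted p = 0.976). The difference was below 0 in 45 of the 61 rows, with a median of −0.35 against −0.12 over all genes. With library size alone these medians were −0.088 and 0.15. The fold changes had the same sign in both lines in 32 of the 61 rows. MRPL14 and MRPL10, called in Gracie alone, differed by 1.10 (SE 0.44, edgeR adjusted p = 0.113) and −0.69 (SE 0.30, edgeR adjusted p = 0.150), so neither was shown to differ between lines as reported. MRPL14 was called with library size alone and without DLM8 untreated replicate 1.

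Proteins of the mitochondrial ribosome that do not carry an MRP name were read beside the rows. Of 5 such genes, 2 rose and 0 fell in DLM8, and 1 rose and 0 fell in Gracie. For this and the following lists the shares over all genes are 19.4% higher and 15.9% lower in DLM8, and 12.5% higher and 8.06% lower in Gracie. Dap3, a GTP-binding small subunit protein also known from apoptosis studies, rose by 1.14 in DLM8 (SE 0.15, edgeR adjusted p = 0.000134) from 29.7 to 65.5 CPM, and had a value of 0.42 in Gracie that was not called. PTCD3, a small subunit protein with pentatricopeptide repeats, rose in both lines, by 1.04 in DLM8 (SE 0.35, edgeR adjusted p = 0.0357) and by 0.79 in Gracie (SE 0.23, edgeR adjusted p = 0.0249).

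Of 15 mitochondrial translation factors and RNA-binding cofactors tested in DLM8, 2 rose and 2 fell (13.3% each, median −0.09), and of 13 in Gracie 1 rose and 1 fell (median 0.15). Slirp, which stabilises mitochondrial mRNAs, rose by 1.03 in DLM8 (SE 0.10, edgeR adjusted p = 8.81e-06), and Mrrf, the ribosome recycling factor, by 0.75 (SE 0.15, edgeR adjusted p = 0.00256). The 2 that fell in DLM8 were Gfm2, by 0.87 (SE 0.19, edgeR adjusted p = 0.00378), and Mtif3, an initiation factor, by 0.46 (SE 0.15, edgeR adjusted p = 0.0336). MTIF3 also fell in Gracie, by 0.80 (SE 0.20, edgeR adjusted p = 0.0123). GUF1, an elongation factor, rose there by 2.46 (SE 0.66, edgeR adjusted p = 0.0165). Among 23 assembly factors in DLM8, 3 rose (13.0%, against 19.4% of all genes) and 1 fell (median −0.05). Gtpbp6 rose by 1.92 (SE 0.16, edgeR adjusted p = 2.87e-06), and Mterf4 by 1.06 (SE 0.14, edgeR adjusted p = 0.000101). Both act on the large subunit. In Gracie 0 of 17 rose and 1 fell (median 0.12), namely MTERF3, by 0.58 (SE 0.19, edgeR adjusted p = 0.0437).

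Mitochondrial aminoacyl-tRNA synthetases charge the tRNAs that this ribosome uses. In DLM8, 1 of 16 rose and 2 fell (6.25% and 12.5%, against 19.4% and 15.9% of all genes, median −0.02). In Gracie 4 of 15 rose and 0 fell (26.7% higher, against 12.5% of all genes, median 0.70). Hars2 fell by 0.67 (SE 0.13, edgeR adjusted p = 0.00167) and Iars2 rose by 0.81 (SE 0.19, edgeR adjusted p = 0.00648) in DLM8. WARS2 rose by 1.93 (SE 0.26, edgeR adjusted p = 0.000191) in Gracie. The difference of the list between lines was not tested.

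Genes for transcription and upkeep of mitochondrial DNA showed 1 lower of 8 in DLM8 (median −0.23) and 0 called of 8 in Gracie (median 0.11). The lower row was Twnk, the mitochondrial helicase gene, which faces Mrpl43 and fell by 0.27 (SE 0.10, edgeR adjusted p = 0.0497). Polrmt, the mitochondrial RNA polymerase gene, had values of −0.76 in DLM8 and 0.70 in Gracie, neither called. Of the protein genes on mitochondrial DNA, 6 were tested in DLM8, of which 4 fell and 0 rose (median −0.63). Examples are mt-Nd1, down by 1.06 (SE 0.21, edgeR adjusted p = 0.00209), and mt-Nd6, down by 0.64 (SE 0.14, edgeR adjusted p = 0.00448), both complex I subunits. In Gracie all 13 such rows were at 0 in every library.

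Among nuclear regulators of mitochondrial genes, 2 of 9 rose and 1 fell in DLM8 (22.2% and 11.1%, against 19.4% and 15.9% of all genes, median −0.09). In Gracie 1 of 9 rose and 0 fell (11.1% higher, against 12.5% of all genes, median 0.48). Gabpa, an ETS-family subunit that binds CCGGAAG-type letters, fell by 0.79 (SE 0.12, edgeR adjusted p = 0.000464) and Myc rose by 1.27 (SE 0.19, edgeR adjusted p = 0.000351) in DLM8. PPRC1, a coactivator related to PGC-1, rose by 1.16 in Gracie (SE 0.20, edgeR adjusted p = 0.00116). For comparison, 55 of 78 cytosolic ribosomal protein rows were lower and 0 higher in DLM8 (median −0.60), and 3 of 55 were lower and 0 higher in Gracie (median −0.35).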

How the data were processed

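Column-purified, DNase-treated RNA was selected for poly(A) and prepared with a NuQuant kit (Universal Plus mRNA-Seq), per the labels' protocols. The authors deposited whole-number counts per gene in a mouse and a dog table, not normalized. The submitters' processing notes name the builds CanFam3.1, mm39 and GRCm39 and the tools STAR, Subread and featureCounts. Tool versions, strand setting and the handling of read pairs are not stated in the sources used here. Among nonzero values, 71.7% to 73.7% were even in a mouse library and 67.7% to 72.9% in a dog library, so fits with halved counts were run. Library names in the labels tied columns to samples (0 columns were left unmapped). Rows without a symbol held 29.2% to 33.1% of mouse and 24.8% to 36.4% of dog counts and stayed in the tests.

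The lines were fitted separately with edgeR 4.0.16 in R 4.3.3 (filterByExpr, TMM scaling, quasi-likelihood F-test). P-values were adjusted by Benjamini-Hochberg across every gene tested in the line, and a row was called at an adjusted p under 0.05. Fold changes are log2, OMX against untreated, and the SE is their absolute value over the square root of F. CPM, for counts scaled per library, use TMM-scaled library sizes. edgeR's common coefficient of biological variation came to 0.246 (DLM8) and 0.296 (Gracie). The smallest p that an exact two-sided permutation of 3 against 3 allows is 0.1. The lines were compared by the interaction of line and treatment over genes of the same symbol.

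The member genes and lists were chosen with earlier results of these data known. The naming rule took, per line, the 10 lower and 6 higher called rows with the smallest p and the 4 with the most counts, every row called in both lines, the 4 smallest interaction p, the MRPS18 paralogues, and 2 rows with the smallest p of each other list. Values of a few genes are left out. Alternatives were other scalings, DESeq2 1.42.0, other filters, halved counts, each library left out and a replicate block. GENCODE M21 (GRCm38) served for overlaps, exon lengths and neighbours, so no coordinates of table rows are given. The nuclear respiratory factor 1 letters were shortened after a longer form had been counted. The fits were tested on simulated data.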

Additional observations from a re-analysis of the deposited data

Results flagged for a closer look

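The response to OMX differed between DLM8 and Gracie for 4 mitochondrial ribosomal rows, by the interaction of line and treatment (edgeR's quasi-likelihood test, DLM8 minus Gracie on the log2 scale). The difference was 2.53 for MRPL4, 1.25 for MRPL24, 1.86 for MRPL19 and −1.65 for MRPS18A. The dog row of MRPL19 held 106 counts over 6 libraries, and that of MRPL24 722.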

How the results depend on the processing

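Of 46 single-gene results, 19 kept their direction and their side of the threshold in all settings run, among them 8 of the 26 called (MRPL4, MRPL19, MRPL38, MRPL34, MRPL18 and MRPS14 in DLM8, MRPL14 in Gracie and the line difference of MRPL4). Lower rows in DLM8 numbered 10, 4 with library size alone, 4 among rows that no gene overlaps on the other strand, and 4 to 12 with a library left out. Higher rows numbered 5, 3 among the rows without overlap, and 3 to 4 with a library left out. In Gracie, lower rows numbered 2, 1 with DESeq2 size factors, DESeq2's Wald test, no filter or a minimum of 10 counts, and 1 to 2 with a library left out. Higher rows numbered 5, 3 with upper quartile scaling or a minimum of 10 counts, 1 with library size alone, and 0 to 3 with a library left out. Among dog rows whose mouse counterpart overlaps no gene, a setting added after seeing the data, 1 was lower and 3 higher. Line differences numbered 4, and 1 to 5 with a library left out. The cause of these moves was not tested. With a replicate block, the counts were 12 lower and 5 higher in DLM8, 2 and 5 in Gracie and 5 differences, MRPL14 being added. The numbers pair nothing in the labels, the correlations of same-numbered deviations were 0.24, 0.054 and 0.14 in DLM8 and 0.13, −0.019 and 0.19 in Gracie, and 2 of 3 pairs in each line correlated best with their own number. Signs turned only in uncalled results. MRPS31 in DLM8 was 0.095 with library size alone, and MRPS2 in Gracie was 0.0049 with the replicate block. With a library left out, the DLM8 ranges were −0.73 to 0.22 for MRPS31, −0.39 to 0.27 for MRPL14 and −0.020 to 0.31 for MRPL20. The Gracie ranges were −0.36 to 0.40 for MRPS2, −0.40 to 0.096 for MRPL37, −0.042 to 0.63 for MRPS25, −0.89 to 0.0022 for MRPL34, −0.38 to 0.18 for MRPL46 and −0.079 to 0.20 for the median of all rows. Depth limits low rows: the median row tested held 472.5 counts over 6 libraries in DLM8 and 357 in Gracie.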
